A study of Mus musculus with 47 samples.

Results

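Single wild-type fibres of the extensor digitorum longus (EDL), a fast muscle of the mouse lower leg, carried very different amounts of Egr1 RNA, and 18 of the 27 WT fibres are described here by that difference. Egr1 encodes a zinc-finger transcription factor of the immediate-early class. The fibres were chosen by their own Egr1 level: the 27 WT fibres were ranked by Egr1 CPM (the gene's read count scaled to 1000000 counts assigned to genes in the fibre), and the 9 highest were compared with the 9 lowest across all other genes. Egr1 itself was left out of the comparison, because its value fixed the sets. The whole series holds 47 fibres, 27 from WT and 20 from C2KO mice. Both groups were FVB/N animals of 2 to 3 months, 3 WT and 2 C2KO. In C2KO fibres the gene Mybpc2, which encodes fast skeletal myosin binding protein-C, is knocked out: Mybpc2 lay between 6563 and 11556 CPM in the WT fibres and between 2.61 and 47.6 CPM in the C2KO fibres. Every muscle was digested in 0.5% collagenase for 90 min at 37 °C and triturated before single fibres were picked, washed and lysed. No fibre lysed without digestion was analysed here.

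Immediate-early genes are transcribed within minutes of a stimulus and without new protein synthesis. Growth-factor and stress kinases act on factors already bound at their promoters, among them serum response factor at the CArG box and CREB at the cAMP response element. The first products include the AP-1 subunits of the Fos and Jun families, the Egr and Nr4a factors, the phosphatases that switch the kinases off again and the proteins that destroy short-lived mRNAs. In skeletal muscle these genes respond to contraction, stretch and injury, and in many tissues they also respond to enzymatic dissociation.

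Egr1 ranged from 1855 to 3793 CPM in the 9 high fibres, with a median of 2064 CPM. It ranged from 55.6 to 658 CPM in the 9 low fibres, with a median of 199 CPM. The 9 fibres between them lay at 878 to 1850 CPM. The upper limit fell inside a continuum: WT fibre 3, the last fibre taken as high, held 1855 CPM and WT fibre 26, the next in rank, held 1850 CPM. The lower limit fell in a wider gap, from 878 CPM in WT fibre 23 to 658 CPM in WT fibre 25. The mean of log2 Egr1 CPM differed by 3.64 between the sets. These values chose the fibres and were not tested.

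The sets also differed in properties other than Egr1. Of the 9 high fibres, 6 had counts of Y-linked genes and 3 had Xist counts, the RNA of the inactive X chromosome. Of the 9 low fibres, 7 had Xist counts, 1 had Y-linked counts, and WT fibre 9 had both. The low fibres were also close together in the numbering of the sample titles: 8 of the 9 carried numbers from 51 to 63, against 0 of the 9 high fibres. The only other WT fibre with a number in that range lay in the middle set. No label ties a fibre to a mouse, so Egr1 level, animal and numbering cannot be told apart in the 18 fibres, and p-values measure the spread between fibres and not between animals. By sequencing run, the high fibres came 6 from a sequencing run called A here, 2 from run B and 1 from run C, and the low fibres came 3, 2 and 4 from the same runs. No pair of fibres of a genotype agreed within sampling noise: the lowest chi-square per degree of freedom was 8.40 among the WT pairs.

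**Figure D1:**
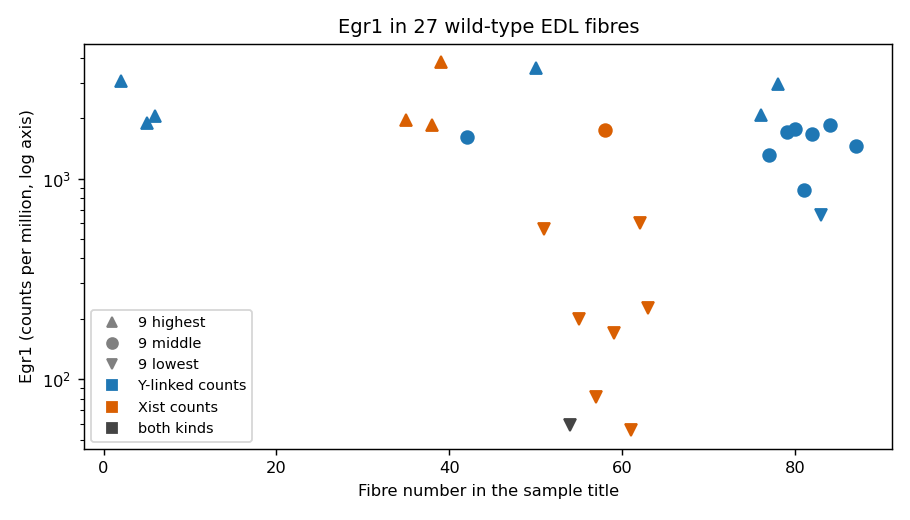
Egr1 in the 27 WT fibres, in CPM on a log axis, against the fibre number in the sample title; triangles up, circles and triangles down mark the 9 highest, 9 middle and 9 lowest fibres, and colour marks the kind of sex-linked counts. 8 of the 9 lowest fibres carry numbers from 51 to 63, and the lowest lies at 55.6 CPM.

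Depth and fibre type of the sets were compared first. Counts assigned to genes ran from 7769590 to 14606600 per fibre in the high set and from 7842180 to 13214400 in the low set, and the means did not differ beyond their spread (exact permutation test over fibres, two-sided, adjusted p = 0.133 over 3 such values). Without WT fibre 6, the shallowest high fibre, the differences in gene counts (2507610, adjusted p = 0.0187) and in genes detected (443, adjusted p = 0.0105) both passed the exact permutation test. A mean of 12451 ± 541 genes was detected in the high fibres and of 12167 ± 309 in the low fibres (SD; exact permutation test, adjusted p = 0.193). Myh4, the myosin heavy chain of type IIb fibres, made up 99.3% to 99.6% of all counts for Myh1, Myh2, Myh4 or Myh7 in the high fibres and 99.4% to 99.7% in the low fibres, so all 18 were IIb by this measure. The mean share was lower in the high set by 0.134 percentage points (exact permutation test, adjusted p = 0.0381), but the call was lost when any of WT fibres 2, 3, 4, 13, 14, 15, 16, 17, 18 or 25 was left out, with differences of -0.135 to -0.115. Non-muscle RNA was low in both sets but not equal. The summed CPM of the marker lists of other cell types, desmin and Cdh15 left aside, ran from 33.5 to 487 in the high fibres, with a median of 75.7, and from 26.8 to 113 in the low fibres, with a median of 46.8. Fibroblast markers reached 381 CPM in 1 high fibre and had medians of 3.89 CPM in the high and 1.90 CPM in the low set. Endothelial markers had medians of 0.822 CPM in the high and 1.11 CPM in the low set. The satellite-cell list was larger, with medians of 83.7 and 66.1 CPM when Cdh15 was counted. The macrophage and leukocyte markers summed to 2.06 to 19.1 CPM in the high and 3.16 to 10.2 CPM in the low fibres, both with a median of 7.39 CPM, and 5 of the 12, Ptprc and Csf1r among them, had no count in any of the 18 fibres. Of the 6 erythrocyte markers 5 had no count in the 18 fibres, and the list reached 0.932 CPM. The part of other cells in the results was not tested. With the summed marker level as a covariate the comparison below gave 38 genes higher and 28 lower.

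Because the genes that stood out below are known for shared promoter elements, promoters of those called higher were searched first for their letters. RefSeq windows of 250 bases before a transcription start (build GRCm38.p6) were found for 29 of the 41 genes called higher. The CArG box was present in 2 of these, Egr2 and Zfp36, and in 1.5% of all tested genes with a window. The cAMP response element TGACGTCA was present in 2, Btg2 and Dusp1, against 3.31% of tested genes. The EGR site GCGNGGGCG was present in 6, against 10.6% of tested genes. The TATA box TATAAA was present in 5, Fos among them, against 7.57% of tested genes. The AP-1 site TGANTCA was present in 2, against 4.90%, and the heat shock element in 0, against 0.499%. Windows were found for 14 of the 18 genes called lower, of which 1 (Fbxl22) held a CArG box, 1 (Fbp2) an AP-1 site and 0 any of the other motifs. Both strands were read, and a match describes letters in the window and not binding. Elements farther than 250 bases before the start were not searched, so a window without a motif does not show that the gene lacks it.

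The windows are shown 5′ to 3′ on the strand of the gene for 5 genes called higher: Fos, because it had the smallest p-value in the comparison, and the 4 with a CArG box or a cAMP response element. Capitals mark the motif matches. The Fos window lies on the plus strand at chr12:85473640-85473889, with a TATA box 33 to 28 bases before the start. The Egr2 window lies on the plus strand at chr10:67537316-67537565, with a CArG box 72 to 63 bases before the start. Of 5 annotated starts of Egr2, the start shown was taken for having the most kinds of motif in its window. The Zfp36 window lies on the minus strand at chr7:28379229-28379478, with an EGR site and then a CArG box. The Btg2 window lies on the minus strand at chr1:134079156-134079405, with a cAMP response element and then an EGR site. The Dusp1 window lies on the minus strand at chr17:26508473-26508722, with a cAMP response element 143 to 136 bases before the start.
Fos: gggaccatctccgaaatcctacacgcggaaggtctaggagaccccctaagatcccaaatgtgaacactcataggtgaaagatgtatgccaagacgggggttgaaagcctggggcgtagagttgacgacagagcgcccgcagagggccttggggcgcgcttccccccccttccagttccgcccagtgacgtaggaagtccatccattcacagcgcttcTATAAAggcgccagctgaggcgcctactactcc
Egr2: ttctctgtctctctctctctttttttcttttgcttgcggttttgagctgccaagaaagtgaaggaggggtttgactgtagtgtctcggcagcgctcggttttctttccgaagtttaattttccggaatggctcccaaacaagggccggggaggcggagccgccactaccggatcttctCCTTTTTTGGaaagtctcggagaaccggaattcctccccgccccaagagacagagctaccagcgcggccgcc
Zfp36: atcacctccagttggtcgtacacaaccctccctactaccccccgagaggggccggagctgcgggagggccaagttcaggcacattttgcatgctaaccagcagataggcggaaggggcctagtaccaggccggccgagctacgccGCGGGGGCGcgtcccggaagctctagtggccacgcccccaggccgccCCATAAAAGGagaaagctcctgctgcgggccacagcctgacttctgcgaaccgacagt
Btg2: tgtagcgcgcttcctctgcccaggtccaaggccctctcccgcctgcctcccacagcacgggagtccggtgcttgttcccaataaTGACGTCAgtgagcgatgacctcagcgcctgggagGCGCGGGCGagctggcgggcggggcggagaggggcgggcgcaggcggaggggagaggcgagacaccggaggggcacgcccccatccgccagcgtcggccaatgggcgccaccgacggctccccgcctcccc
Dusp1: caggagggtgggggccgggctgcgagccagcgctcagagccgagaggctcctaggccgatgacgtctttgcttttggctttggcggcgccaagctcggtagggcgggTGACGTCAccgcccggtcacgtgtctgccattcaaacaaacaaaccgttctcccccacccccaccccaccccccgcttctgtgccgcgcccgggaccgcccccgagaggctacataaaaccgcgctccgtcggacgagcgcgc

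The genes called higher in the high-Egr1 fibres included Fos, Fosb, Junb, Egr2 and Ier2. Of 10135 genes tested with edgeR's quasi-likelihood test, 41 were higher (0.405%) and 18 were lower (0.178%) in the high fibres at a Benjamini-Hochberg adjusted p under 0.05 and a fold over 1.5, and 821 were higher and 905 lower at an unadjusted p under 0.05. Ier2 was 8.75-fold, Egr2 8.61-fold, Fos 7.64-fold and Fosb 6.83-fold higher, and 14 of the 41 belonged to 4 lists of early genes that together held 64 tested genes, most of which did not pass. The median log2 difference over all tested genes was 0.01. Both counts moved with single fibres: they were 82 and 35 without WT fibre 7 and 27 and 9 without WT fibre 14, and the count of lower genes was 9 without WT fibre 13 and 11 without WT fibre 17. Without the fibres of run A, which leaves 3 high and 6 low, edgeR called 0 genes in either direction, with 459 higher and 489 lower at an unadjusted p under 0.05.

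**Figure D2:**
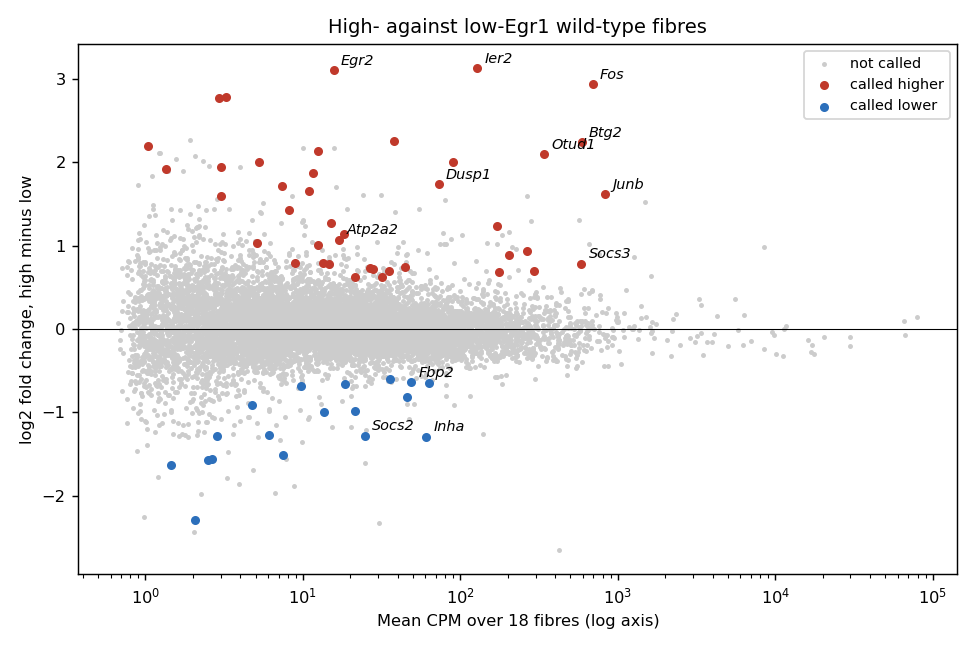
Each point is 1 of 10135 genes: log2 fold change of the 9 high-Egr1 over the 9 low-Egr1 WT fibres against mean CPM over the 18 fibres on a log axis. The 41 genes called higher and 18 called lower are coloured, and Fos, Ier2 and Junb combine a high level with a large difference.

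Fos and Junb encode subunits of the AP-1 dimer. Fos (chromosome 12, 85473901 to 85477270 in mm10) lay between 828 and 1619 CPM in the high fibres, with a median of 1218 CPM, and between 49.4 and 442 CPM in the low fibres, with a median of 112 CPM. The sets did not overlap, and the low fibre nearest to the high set was WT fibre 25, the only low fibre with Y-linked counts alone. The log2 difference was 2.93 ± 0.32 (SE; adjusted p = 7.46e-05), a 7.64-fold change. Junb (chromosome 8, 84976909 to 84978748) lay between 882 and 1719 CPM in the high fibres and between 214 and 755 CPM in the low fibres, with medians of 1220 and 337 CPM. Its sets did not overlap either, and the log2 difference was 1.61 ± 0.21 (adjusted p = 0.000613).

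The other called members of the AP-1 and Egr list were Ier2, Egr2 and Fosb, and the list had 5 of 14 tested members higher and 0 lower. Its median log2 difference was 1.03, and all 14 were positive, against 5278 of the 10135 genes tested. Ier2, a nuclear protein of the early response, lay between 134 and 442 CPM in the high fibres and between 4.17 and 55.1 CPM in the low fibres. Its log2 difference of 3.13 ± 0.41 (adjusted p = 0.000613) was the largest of all called genes. Egr2, the close relative of Egr1, lay between 8.66 and 43.8 CPM in the high and between 0.253 and 9.69 CPM in the low fibres, so that a single high fibre, WT fibre 3, fell within the low range. Its log2 difference was 3.11 ± 0.47 (adjusted p = 0.00202). Fosb, a Fos paralog present at a low level, was at 2.08 to 8.97 CPM against 0 to 1.79 CPM, and is named here after its values were seen. Jun, the partner that Fos is best known for, lay between 98.6 and 341 CPM in the high and between 36.1 and 220 CPM in the low fibres, and did not pass (log2 difference 1.02 ± 0.33, adjusted p = 0.117).

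**Figure D3:**
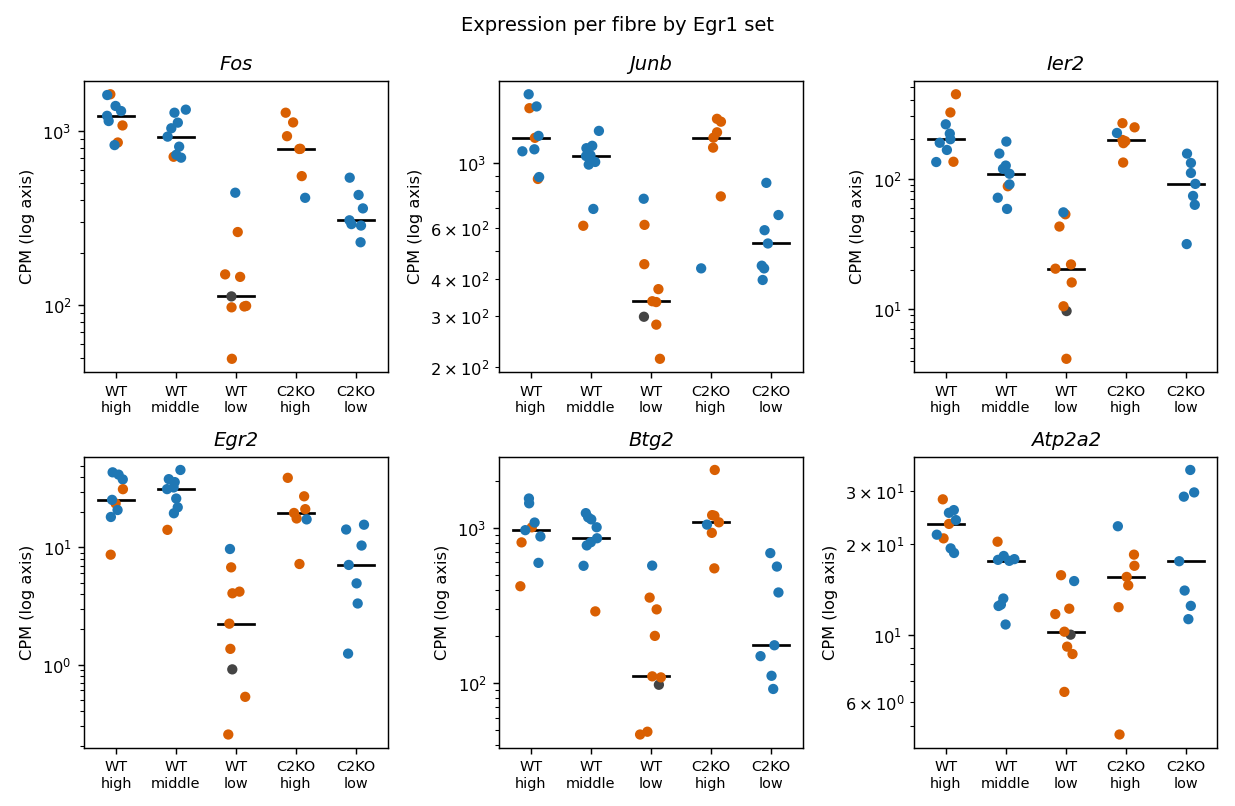
CPM on log axes of Fos, Junb, Ier2, Egr2, Btg2 and Atp2a2 in each fibre of the WT high, middle and low sets and of the C2KO high and low sets; bars are medians, and blue, orange and grey mark Y-linked, Xist and both kinds of counts. In the WT fibres the high and low sets of Fos, Junb, Ier2 and Atp2a2 do not overlap, and the middle fibres of Fos and Junb lie close to the high ones.

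The second list, of Nr4a, Klf and Myc factors and proteins of mRNA decay, had 3 of 21 tested members higher and 0 lower. The median log2 difference was 0.43, the lowest was -0.71, and 16 of the 21 were positive. Csrnp1, a nuclear factor of the early response, lay between 24.8 and 117 CPM in the high and between 2.04 and 34.8 CPM in the low fibres (log2 difference 2.25 ± 0.47, adjusted p = 0.0239). Btg2, an antiproliferative protein that recruits mRNA deadenylation, lay between 421 and 1546 CPM in the high fibres and between 46.8 and 572 CPM in the low fibres. Its median fell from 967 CPM in the high to 111 CPM in the low set, a log2 difference of 2.24 ± 0.42 (adjusted p = 0.0125). Zfp36, the tristetraprolin that binds AU-rich mRNA, had medians of 251 and 84.4 CPM (log2 difference 1.23 ± 0.26, adjusted p = 0.0242). The Nr4a receptors, also early genes of contracting muscle, did not pass: Nr4a1 had medians of 827 and 788 CPM in the high and low sets, with a log2 difference of 0.36 ± 0.26 (adjusted p = 0.511).

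Of 21 tested genes of MAP kinase feedback and growth arrest, which restrain the signalling cascades, 3 were higher and 0 lower. Their log2 differences had a median of 0.70 and a minimum of -0.11, and 20 of the 21 were positive. Dusp1, a phosphatase of the MAP kinases, lay between 52.5 and 209 CPM in the high and between 16.4 and 76.6 CPM in the low fibres (log2 difference 1.73 ± 0.31, adjusted p = 0.0113). Trib1, a pseudokinase, had medians of 149 and 24.8 CPM (2.00 ± 0.39 on the log2 scale, adjusted p = 0.0161). Gadd45g, a stress-inducible regulator of kinases, had medians of 358 and 168 CPM, and a log2 difference of 0.94 ± 0.17 (adjusted p = 0.0113). Among 8 tested early secreted factors and NF-kappaB targets, all 8 were positive, with a median of 1.02, and 3 were called higher: the matricellular protein Ctgf, the atypical inhibitor Nfkbiz and the cytokine-signalling inhibitor Socs3. Socs3 was the most abundant, at 428 to 1128 CPM against 273 to 685 CPM (log2 difference 0.78 ± 0.18, adjusted p = 0.0391), and its sets overlapped. In Nfkbiz, a low fibre was at 0 CPM, and the sets lay at 11.9 to 35.5 CPM and 0 to 14.2 CPM. The remaining 11 members of that list, Il6, Ccl2 and Cxcl1 among them, were too low to be tested.

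Outside these lists, Otud1, a deubiquitinase, had medians of 550 and 110 CPM (log2 difference 2.10 ± 0.40, adjusted p = 0.0141). The following genes were named after their values were seen. Atp2a2 encodes SERCA2, the calcium pump of slow fibres and heart, whereas IIb fibres use SERCA1, encoded by Atp2a1. Atp2a2 lay between 18.6 and 28.1 CPM in the high fibres and between 6.46 and 15.7 CPM in the low fibres, without overlap (log2 difference 1.07 ± 0.14, adjusted p = 0.000613). Atp2a1 had medians of 83716 and 77143 CPM and did not pass (0.15 ± 0.10 on the log2 scale, adjusted p = 0.466). Map1b, a microtubule-associated protein, lay between 13.4 and 29.0 CPM against 4.74 and 11.7 CPM, again without overlap (log2 difference 1.27 ± 0.19, adjusted p = 0.00202). Lmod2, a nucleator of actin filaments in the sarcomere, had medians of 9.71 and 2.00 CPM (log2 difference 2.00 ± 0.38, adjusted p = 0.0127), and Fam132b, the hormone erythroferrone, 2.78 and 0.983 CPM (2.78 ± 0.50, adjusted p = 0.0113). Plec, the cytoskeletal linker plectin, had medians of 338 and 222 CPM (log2 difference 0.70 ± 0.15, adjusted p = 0.0255). Mat2a, which makes S-adenosylmethionine, and Particl were both called higher, but exons of these 2 genes overlap on opposite strands and reads from them may not be separable.

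The lower genes did not fall into any of the lists. Inha, the inhibin alpha subunit, lay between 14.7 and 63.2 CPM in the high and between 51.3 and 133 CPM in the low fibres (log2 difference -1.29 ± 0.20, adjusted p = 0.00265). Socs2, an inhibitor of growth-hormone signalling, had medians of 15.7 and 38 CPM (-1.28 ± 0.24 on the log2 scale, adjusted p = 0.0128). Kazald1, a secreted protein related to the insulin-like growth factor binding proteins, was the only gene called lower whose sets did not overlap, at 9.83 to 19.7 CPM against 20.0 to 40.2 CPM (-0.99 ± 0.15, adjusted p = 0.00202). Rrs1, a factor of ribosome assembly, had medians of 32.1 and 66.5 CPM (-0.81 ± 0.15, adjusted p = 0.0127). Fbxl22, an F-box protein of the sarcomere, had medians of 10.3 and 19.8 CPM (-0.99 ± 0.15, adjusted p = 0.00265), and its exons overlap Herc1 on the other strand. Cntnap2, Tmem223, Fbp2 and Akt1 differed by -0.60 to -0.66 on the log2 scale. Fbp2 is the muscle fructose bisphosphatase, at medians of 34.6 and 59.3 CPM (adjusted p = 0.0263), and Akt1 is the kinase of insulin signalling, at 30.8 and 43.6 CPM (adjusted p = 0.0382). Over both directions, 17 of the 10135 genes had sets that did not overlap (0.168%), of which 8 were among the 41 called higher and 1 among the 18 called lower. Among the named genes with a call, those lost on leaving out some single fibre were Zfp36 (without WT fibre 9 or 14), Plec (1, 14 or 15), Fbp2 (1, 4, 8, 13, 14 or 17) and Tmem223 (13, 14, 15, 16, 17 or 20). Myl4, an embryonic and atrial myosin light chain that was called lower (-1.52 ± 0.35, adjusted p = 0.0382) and whose exons overlap another gene on the other strand, lost its call in 11 of the 18 fits that left out 1 fibre, Nfkbiz in 11, Socs3 in 12, and Mat2a and Akt1 in 13 each.

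The remaining lists had no member past the test. All 22 heat shock chaperones were tested, 9 were positive, and their median log2 difference was -0.03. Of the 9 WT fibres with most Hspa1a and Hspa1b, 3 were high-Egr1 and 4 were low-Egr1 fibres. Of 21 tested genes of the fast sarcomere and calcium handling, 9 were positive (median -0.07). Acta1, skeletal actin, had medians of 64735 and 65192 CPM in the high and low sets (log2 difference -0.07 ± 0.09, adjusted p = 0.722). The 10 genes of glycolysis were all negative, with differences from -0.28 to -0.01. Aldoa, an aldolase, had medians of 28414 and 30679 CPM (-0.20 ± 0.07, adjusted p = 0.155), and Eno3, the muscle enolase, 7942 and 9268 CPM (-0.24 ± 0.08, adjusted p = 0.144). Of 22 cytosolic ribosomal proteins 1 was positive (median -0.28) and of 19 proteasome subunits 2 were positive (median -0.17). Rplp0, of the ribosomal stalk, and Psmc3, of the proteasome, had adjusted p-values of 0.0263 and 0.0191 but log2 differences of only -0.38 ± 0.08 and -0.31 ± 0.06, under the fold limit. The log2 differences of Rpl4 and Psmd2, also among the abundant members of these lists, were -0.11 ± 0.07 and -0.07 ± 0.06. Lists of the unfolded protein response, atrophy, oxidative metabolism, the circadian clock and denervation had medians between -0.05 and 0.06. The SRF cytoskeletal targets had a median of 0.22, the contraction- and calcium-induced genes of 0.16, the antioxidant genes of 0.04 and the stretch-responsive genes of 0.34.

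**Figure D4:**
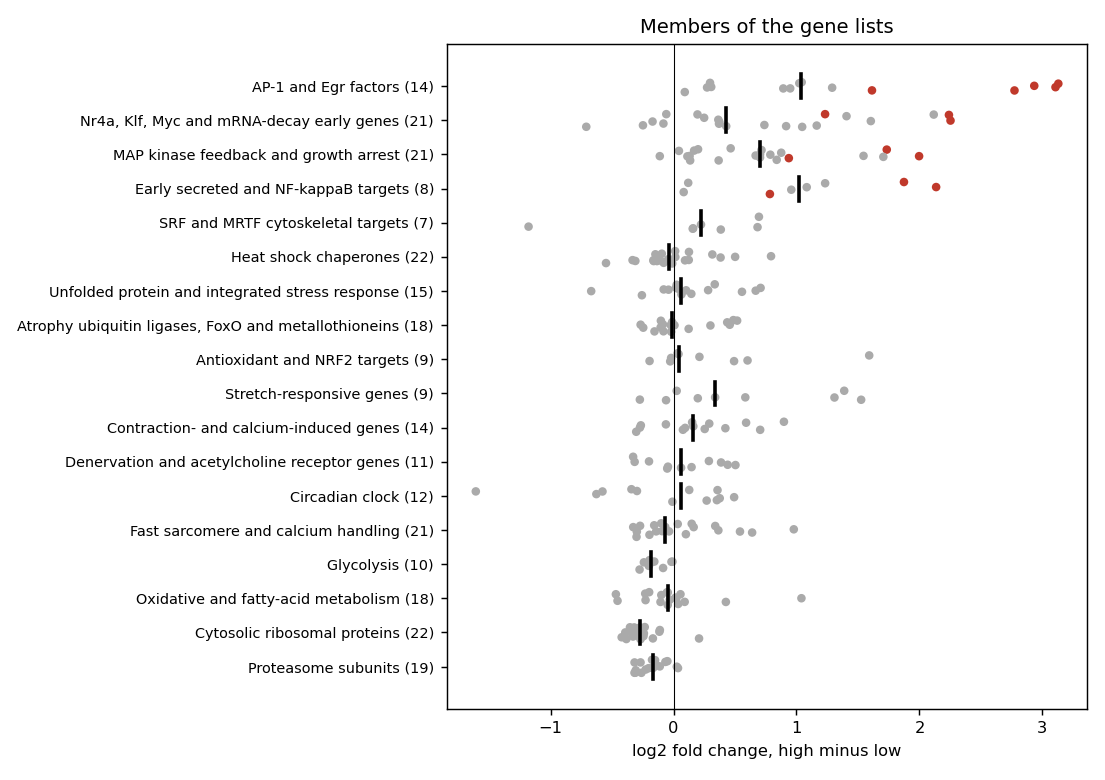
Log2 fold change of the high- over the low-Egr1 WT fibres for each tested member of 18 gene lists, with the number tested in brackets; black bars are list medians, red points genes called higher. Called genes appear in the 4 lists at the top, whose medians lie between 0.43 and 1.03, and no member of the other 14 was called.

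The 9 fibres of the middle set lay closer to the high than to the low set for Fos, Junb, Egr2 and Btg2. This comparison was added after the data were examined. Between the high and the middle fibres 9 genes were higher (0.0885%) and 0 lower (0%) in the high fibres by edgeR, with 587 lower at an unadjusted p under 0.05. Between the middle and the low fibres 19 genes were higher (0.188%) and 10 lower (0.099%) in the middle fibres. Of the Nr4a receptors, which did not pass between the ends, Nr4a2 was among the 19 and Nr4a3 among the 10. These comparisons share fibres with each other and with that of the ends. Fos lay at 701 to 1321 CPM in the middle fibres, with log2 differences of 0.39 ± 0.15 from middle to high (adjusted p = 0.231) and of 2.54 ± 0.31 from low to middle (adjusted p = 0.000617). Egr2 lay at 14.1 to 45.8 CPM in the middle fibres, with a log2 difference of -0.06 ± 0.25 from middle to high (adjusted p = 0.932) and of 3.17 ± 0.44 from low to middle (adjusted p = 0.0023). Ier2 was more even, with 1.06 ± 0.24 from middle to high (adjusted p = 0.0676) and 2.06 ± 0.39 from low to middle (adjusted p = 0.0252). Atp2a2 passed neither step, with 0.58 ± 0.13 (adjusted p = 0.0676) and 0.48 ± 0.16 (adjusted p = 0.183). The middle set held 8 fibres with Y-linked and 1 with Xist counts.

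The kind of sex-linked counts reduced the calls when it entered the fit. With it as a covariate, and without WT fibre 9, 6 genes were higher and 2 lower. The 6 were Fos, Ier2, Junb, Egr2, Atp2a2 and Nfatc3, a calcium-dependent transcription factor, and the 2 were Cntnap2 and Cmbl, a hydrolase. The log2 difference of Fos was then 2.64 (adjusted p = 0.000812) and that of Ier2 was 3.02 (adjusted p = 0.00785). Some genes that lost their call kept a difference close to that without the covariate, such as Csrnp1 (2.12, adjusted p = 0.182), Ctgf (1.87, adjusted p = 0.118), Dusp1 (1.58, adjusted p = 0.131) and Klf11 (1.36, adjusted p = 0.103). Others were smaller, such as Mat2a (0.18, adjusted p = 0.706), Akt1 (-0.35, adjusted p = 0.492) and Particl (0.42, adjusted p = 0.421). Among Xist fibres alone, 3 high against 7 low, only Fos was called, at a log2 difference of 3.17 (adjusted p = 0.0133). Its values there were 857 to 1619 CPM in the high fibres and 49.4 to 263 CPM in the low ones. Within each run the sets of Fos, Junb, Ier2 and Atp2a2 were apart, as they had to be because their sets did not overlap over all 18 fibres. Egr2 and Btg2, whose sets overlap over the 18 fibres, were apart within each run too. Run B held only 2 high and 2 low fibres and run C only 1 high fibre, and these genes were chosen from calls on the same fibres. Fos lay at 828 to 1619 CPM against 112 to 150 CPM in run A, at 1137 to 1298 CPM against 97.4 to 99.2 CPM in run B, and at 1603 CPM in the 1 high fibre of run C against 49.4 to 442 CPM. With run as a covariate 51 genes were higher and 21 lower.

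A slope on log2 Egr1 uses every fibre in place of the ends, and was fitted within kinds of fibre after the data were examined. A slope of 1 means that a gene doubled when Egr1 doubled. Over 26 WT fibres with the kind of sex-linked counts in the fit, 49 of 11014 genes had a positive slope (0.445%) and 19 a negative slope (0.173%) at an adjusted p under 0.05. The AP-1 and Egr list had 7 of 15 members with a positive slope, the Nr4a, Klf, Myc and mRNA-decay list 6 of 21, the MAP kinase feedback list 4 of 23 and the early secreted list 3 of 11. Ier2 had a slope of 1.01 ± 0.07, Egr2 of 0.86 ± 0.09, Fos of 0.75 ± 0.07, Btg2 of 0.62 ± 0.07 and Junb of 0.42 ± 0.03. These fits share fibres with the comparison of the ends. Among the 49 were early genes whose ends did not pass: Jun (0.44 ± 0.09, adjusted p = 0.0163), Myc (0.62 ± 0.11, adjusted p = 0.00349) and Cyr61 (0.45 ± 0.06, adjusted p = 9.69e-05), a matricellular protein. Of the stretch-responsive list, Xirp1 (0.76 ± 0.16) and Flnc (0.52 ± 0.11), both actin-binding proteins, had positive slopes at an adjusted p of 0.0178 each.

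In the 15 fibres with Y-linked counts alone, where Egr1 varied less, 9 of 10820 genes had a positive slope (0.0832%). Ier2 had 0.97 ± 0.15 (adjusted p = 0.0215) and Fos 0.67 ± 0.11 (adjusted p = 0.0228), whereas Junb had 0.37 ± 0.09 (adjusted p = 0.107). Nr4a1, which did not pass between the ends, had 0.59 ± 0.09 here (adjusted p = 0.0215). In the 11 fibres with Xist counts alone, 10 of 10511 genes had a positive slope (0.0951%): Btg2, Egr2, Fos, Gadd45g, Dusp1, Fosb, Ier2, Junb, Csrnp1 and Cyr61. Ier2 had 1.02 ± 0.10 and Fos 0.76 ± 0.11 there. In the 18 WT fibres numbered outside 51 to 63, 14 of 10942 genes had a positive slope (0.128%). By edgeR 0 of the 41 genes called higher between the ends were among the 14, while 23 of the 41 had a positive slope at an unadjusted p under 0.05. The share of all genes at that unadjusted limit is not given here. These 18 fibres include all 9 high fibres, which helped to choose the 41, so the 23 are not independent of that choice. Ier2 had 1.00 ± 0.22 (adjusted p = 0.0582), Junb 0.38 ± 0.08 (adjusted p = 0.0582) and Fos 0.55 ± 0.13 (adjusted p = 0.0788) in those fibres.

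**Figure D5:**
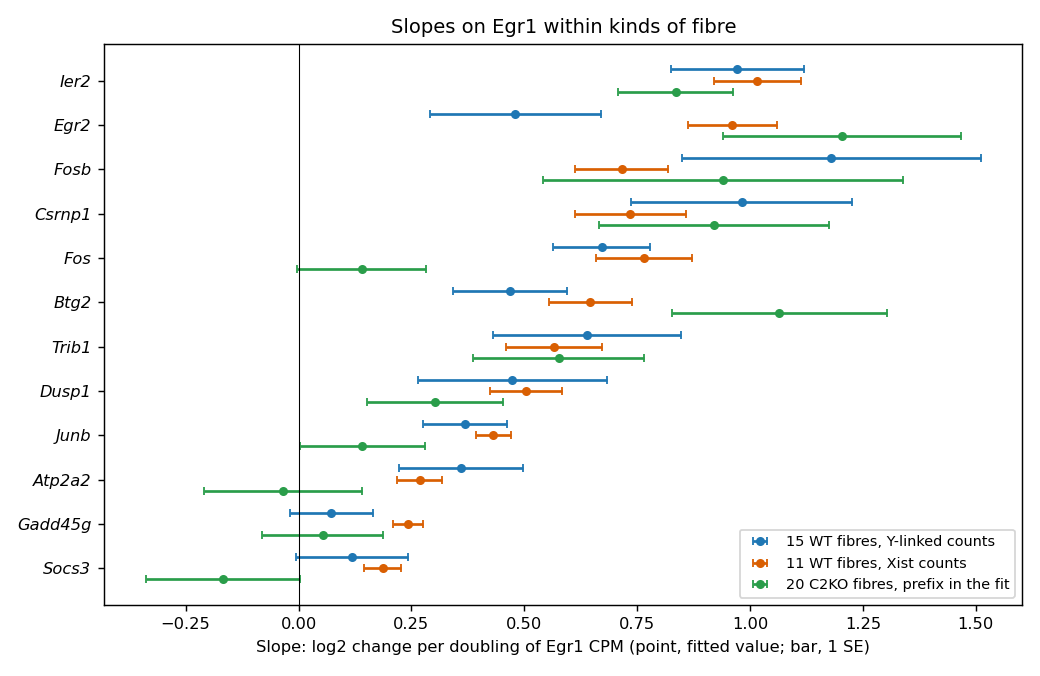
Slopes of 12 early or named genes on Egr1, in log2 change per doubling of Egr1 CPM, with bars of 1 SE, in 15 WT fibres with Y-linked counts, 11 WT fibres with Xist counts and 20 C2KO fibres with the fibre-name prefix in the fit. Ier2 lies near 1 in both kinds of WT fibre, and Fos lies at 0.67 and 0.76 in the WT fibres and at 0.14 in the C2KO fibres.

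In the 20 C2KO fibres the lowest Egr1 level was above the median of the low WT set. The 7 highest lay at 2049 to 2795 CPM and the 7 lowest at 321 to 1004 CPM. Here the sex-linked kinds were the other way round: 6 of the 7 high fibres had Xist counts and carried the prefix 2445, and all 7 low fibres had Y-linked counts and the prefix 740, so prefix, kind and Egr1 cannot be told apart between these sets. Summed markers of other cell types reached 226 CPM in the high and 5464 CPM in the low fibres. Of 9844 genes tested, 24 were higher (0.244%) and 21 lower (0.213%) in the high C2KO fibres. 1 of the 24 was among the 41 of the WT fibres, and it was Fos, while Fbxl22 was the only lower gene in common. Of the 39 WT-higher genes tested in C2KO fibres 32 were positive, against 51.7% of all genes tested there. Fos lay at 413 to 1269 CPM in the high and 230 to 539 CPM in the low C2KO fibres, with overlap (log2 difference 1.35 ± 0.24, adjusted p = 0.0201). Junb differed by 1.06 ± 0.24 (adjusted p = 0.0563), Ier2 by 1.21 ± 0.27 (adjusted p = 0.0552) and Btg2 by 2.02 ± 0.46 (adjusted p = 0.0569). The counts of higher and lower genes were 101 and 152 without C2KO fibre 11, the only high fibre with the prefix 740, 13 and 9 without fibre 5 and 15 and 10 without fibre 10. The count of higher genes was 15 without fibre 14, and that of lower genes was 12 without fibre 7 and 10 without fibre 17.

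The difference between high and low fibres was itself compared between genotypes in 1 model over 32 fibres, and 166 of 10574 genes differed (1.57%). Among the 166 were Xist (-10.5 on the log2 scale, WT minus C2KO), the Y-linked Kdm5d (6.23) and the matrix genes Col4a1 (3.78) and Ltbp4 (6.49). The sets differed in sex-linked kind and in other-cell markers as well as in Egr1, and the part of either in the 166 was not tested. Fos differed more between the WT sets than between the C2KO sets, by 1.60 ± 0.42 on the log2 scale (adjusted p = 0.0432), and Ier2 by 1.93 ± 0.52 (adjusted p = 0.0479). For Junb the figure was 0.57 ± 0.33 (adjusted p = 0.414) and for Btg2 0.23 ± 0.64 (adjusted p = 0.91). The ranges of Egr1 behind these differences were not the same. Fbp2 went in opposite directions, with -0.64 in WT and 1.43 ± 0.24 in C2KO fibres (adjusted p = 0.0139 in the latter; difference -2.05 ± 0.28, adjusted p = 6.29e-05). Inha had -1.29 in WT and 0.75 ± 0.22 in C2KO fibres, the latter not past the test (adjusted p = 0.122; difference -2.04 ± 0.32, adjusted p = 0.000636). For both genes the set with more Xist fibres had the higher level in either genotype, and the part of the kind was not tested in this model. With the kind as a covariate in WT fibres, edgeR gave -0.62 for Fbp2 (adjusted p = 0.289) and -0.90 for Inha (adjusted p = 0.131). In Xist WT fibres alone the differences were -0.71 (adjusted p = 0.396) and -0.94 (adjusted p = 0.375). With the kind or the prefix in the fit neither had a slope that passed (adjusted p = 0.141 and 0.472 for Fbp2, 0.0783 and 0.598 for Inha, in WT and C2KO fibres), although Inha had a slope of -0.57 ± 0.10 (adjusted p = 0.0397) when only WT fibres holding Y-linked counts were fitted.

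Within the C2KO prefixes, a slope over the 20 fibres was positive for 127 of 11101 genes (1.14%) and negative for 25 (0.225%) at an adjusted p under 0.05. Of the 41 WT-higher genes, 4 were among the 127, which is 9.76% of the first list and 3.15% of the second: Ier2, Egr2, Btg2 and Mat2a. Ier2 had a slope of 0.84 ± 0.13 (adjusted p = 0.00425), Egr2 of 1.20 ± 0.26 (adjusted p = 0.0263) and Btg2 of 1.06 ± 0.24 (adjusted p = 0.0289). Fos had 0.14 ± 0.14 (adjusted p = 0.65) and Junb 0.14 ± 0.14 (adjusted p = 0.638). Atp2a2, apart between the WT sets, had -0.03 ± 0.18 (adjusted p = 0.947). The atrophy list had 3 of 19 members with a positive slope in C2KO fibres and 0 of 19 in the WT fibres with the kind in the fit. They were the ubiquitin ligases Trim63 (0.89, adjusted p = 0.00762) and Fbxo30 and the autophagy protein Gabarapl1. Whether these slopes differ between genotypes was not tested.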

How the data were processed

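RNA of single EDL fibres was sequenced in 47 samples, 27 WT and 20 C2KO. The deposited values are raw read counts per gene symbol (24421 genes). Per the submitters' processing notes and file headers, reads were aligned with HISAT2 2.0.5 to mm10 and paired fragments over exons were counted by the authors with featureCounts 1.5.2 (strand setting 2). The sources used here do not say if the library kit was stranded. Fibres were grouped by genotype labels and ranked by Egr1 CPM within genotype. Counts were fitted with edgeR 4.0.16 (TMM, low-count filter, quasi-likelihood test, Benjamini-Hochberg adjustment over all genes tested, Egr1 removed). Calls needed a fold above 1.5 with an adjusted p below 0.05, and for slopes the adjusted p alone. Values per fibre were compared by exact permutation tests (48620 splits, scipy). Alternatives were DESeq2 1.42.0, limma-voom 3.58.1, other scalings, covariates, group sizes and left-out runs or fibres. Fits were tested on simulated data. A fibre was said to have Y-linked or Xist counts above 10 counts.

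The fibres, gene lists and tests were chosen with earlier results of these data known. Fos and Junb were always named, then in each direction up to 10 called genes averaging 10 CPM or more, taken by size of log2 change, and up to 3 called members of a list; for 4 lists without a call the 2 most abundant members were named. Other genes were named after their values were seen. Promoter windows are from RefSeq.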

Additional observations from a re-analysis of the deposited data

Results flagged for a closer look

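The high-to-low difference differed between WT and C2KO fibres, by a test of the difference itself, for 9 of the 44 named genes. Over all genes tested it differed for 166 of 10574 (1.57%). All 9 were called in the same WT fibres, so their number is not independent of that choice. On the log2 scale, WT minus C2KO, it was 1.60 for Fos, 1.93 for Ier2, 1.49 for Atp2a2, 0.88 for Plec, -2.04 for Inha, -1.22 for Socs2, -1.09 for Kazald1, -1.13 for Cntnap2 and -2.05 for Fbp2. Median Egr1 was 2064 CPM in the high and 199 CPM in the low WT set, and 2477 and 671 CPM in the C2KO sets. The kind of sex-linked counts ran in opposite directions in the genotypes. The part of the kind or of the Egr1 range in these differences was not tested.

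Single fibres stood far from the rest of their set in 8 of 94 sets of values, where chance gives about 1 in 20. In the high set these were WT fibre 6, with the fewest gene counts (7769590) and genes detected (11183) and the highest Tmem223 (68.9 CPM), WT fibre 8 for Atp2a1 (73386 CPM) and WT fibre 2 for Myl4 (11.1 CPM). In the low set they were WT fibre 25 for Zfp36 (242 CPM) and WT fibre 13 for Atp2a1 (44580 CPM) and Acta1 (88253 CPM).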

How the results depend on the processing

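The counts of genes higher and lower (41 and 18) were within 1.5 times of these in limma-voom, with RLE or total-count scaling, without the low-count filter, and with run or log2 gene counts as a covariate; ranking by TMM-scaled Egr1 chose the same fibres. They were 125 and 56 with DESeq2, 117 and 30 for 7 against 7 fibres, 109 and 36 with 27 fibres in 3 groups and 142 and 48 for continuous Egr1. They were 6 and 2 with sex-linked kind, 2 and 5 with run and kind as covariates, 5 and 0 for 13 against 13 fibres (681 higher and 838 lower at an unadjusted p under 0.05), 23 and 5 without run B, 0 and 0 without run A (459 higher and 489 lower at an unadjusted p under 0.05), and 1 and 0 in Xist fibres alone (342 higher and 372 lower at an unadjusted p under 0.05). The count of lower genes was 11 without run C, 28 with the marker covariate and 56 with no fold threshold. Leaving out 1 fibre at a time gave 27 to 82 higher and 9 to 35 lower. In C2KO fibres the counts (24 and 21) were 388 and 195 with prefix as a covariate, which rests on 1 fibre, 127 higher for the slope, 0 and 0 in run D, the main C2KO run, alone (457 higher and 587 lower at an unadjusted p under 0.05), 37 lower with limma-voom, and 13 to 101 and 9 to 152 leaving out 1 fibre.

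The difference in Myh4 share was -0.0855 percentage points for 7 against 7 fibres, -0.0828, -0.126 and -0.143 without runs C, A and B, and -0.18 in Xist fibres alone, none past the threshold, and -0.152 to -0.115 leaving out 1 fibre. For 13 against 13 fibres it was -0.112 and passed (permutation test with 100000 resamples, adjusted p = 0.0131). The difference in genes detected reversed to -63.5 without run A (198 to 443 leaving out 1 fibre), and that in gene counts (1912880) was 483121 without run C, 1152530 for 7 against 7 fibres and 1566340 to 2507610 leaving out 1 fibre. Of the single genes, Acta1 reversed to 0.037 without run B and Mat2a to -0.013 in Xist fibres alone.

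No paired analysis was possible because the replicate numbers are only an accession order. The cause of these changes was not tested.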
